A study of Mus musculus with 12 samples.

Results

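The comparison set hippocampal RNA of C57BL/6 mice given ketamine against that of mice given vehicle. Ketamine was injected intraperitoneally at 10 mg/kg and tissue was taken at 24 h. Vehicle went into the nose instead, with 5 µL in each nostril on alternate days over 3 days, so drug, route and schedule cannot be told apart. Each group had 3 libraries, 6 of the 12 in the series, made from poly(A)-selected RNA with a directional kit. The labels do not say that libraries came from separate mice, so p-values measure the spread between libraries, which may be technical. Members were the named loci whose mean over the 6 libraries reached 1 FPKM, a read count scaled to transcript length and library size. They were 15744 of 16664 named loci, in a table of 17864. At the edge of that rule, Hmha1 had a mean of 1.0 FPKM and was kept, and Il17rd had 0.999 FPKM and was not. The values keep no counts, so read depth is unknown.

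Ketamine is an anaesthetic that blocks the pore of NMDA-type glutamate receptors and, at low dose, has a rapid antidepressant action in rodents and people. Work in rodents has tied that action to glutamate release through AMPA receptors, BDNF and its receptor TrkB, the mTOR and eEF2 control of translation, and inhibition of the kinase GSK3. Immediate early genes are switched on within minutes by neuronal activity and decay within hours, and serve as readouts of recent activity in the hippocampus.

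The libraries varied widely in RNA of the neighbouring choroid plexus. Hippocampal markers were present in every library, with Neurod6 of pyramidal cells at 833 FPKM or more and Prox1 of dentate granule cells at 14.6 FPKM or more. The 26 choroid plexus genes averaged 4.29, 4.44 and 2.60 on log2(FPKM + 1) in ketamine libraries 1 to 3, against 4.56, 2.27 and 1.72 in vehicle libraries 1 to 3. Ttr, the thyroid hormone carrier secreted by that tissue, had 2044, 1636 and 223 FPKM with ketamine and 2143, 124 and 16.0 FPKM with vehicle. Ketamine libraries 1 and 2 and vehicle library 1 carried high levels and the other 3 lower levels. All 26 of these genes had higher mean log2 values with ketamine, with a median difference of 0.82, and in none were the groups apart. The first principal component, 30.1% of the variance, had scores of 0.32, 0.40 and -0.00030 for ketamine, against 0.36, -0.41 and -0.67 for vehicle. Correlations of log2 values had a median of 0.971 between groups and 0.971 within groups. Median FPKM lay between 10.1 and 10.4 in all 6 libraries.

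**Figure D1:**
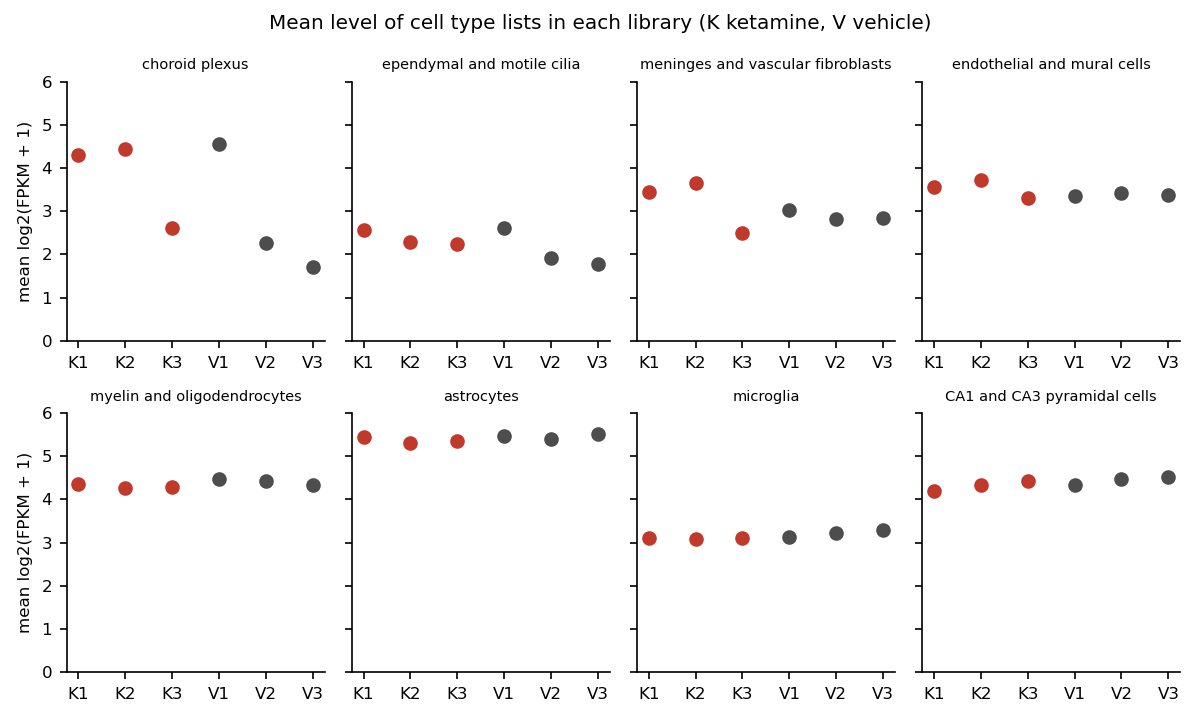
Mean log2(FPKM + 1) of 8 cell type gene lists (vertical axis) in each of 3 ketamine (K, red) and 3 vehicle (V, grey) libraries. Choroid plexus ranges between 1.72 and 4.56, high in ketamine libraries 1 and 2 and vehicle library 1, so the groups overlap. All 26 of its genes have higher mean log2 values with ketamine. The neuronal and glial lists vary little.

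Few loci differed beyond the spread between libraries. The test was limma on log2(FPKM + 1), two-sided, with p-values adjusted by Benjamini-Hochberg over 15744 loci and called up to 0.05. It called 2 loci higher with ketamine (0.0127%) and 0 lower (0.0%). At an unadjusted p under 0.05, 431 loci were higher (2.74%) and 525 lower (3.33%), or 6.07% in all. The 3 ketamine values all lay above the 3 vehicle values at 785 loci (4.99%) and all below at 1013 loci (6.43%). The median log2 difference, ketamine minus vehicle, was -0.016, with a median standard error of 0.15, and 54.3% of loci had a negative difference. The share of lower loci among those at an unadjusted p under 0.05 was 54.9%, and 42.5% after centring each library on its median. An exact permutation test of 3 libraries against 3 cannot go below 0.1 and was not used.

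Both called loci were short stretches that were listed at 0 in every vehicle library, so they met the 1 FPKM rule only through the ketamine libraries. An Mtap7d1 locus of 257 bases on chromosome 4, 125913894 to 125914150 of NCBIM37, had 16.3, 43.0 and 62.8 FPKM with ketamine and was listed at 0 with vehicle (limma, Benjamini-Hochberg adjusted p = 0.0255). Mtap7d1 encodes a protein of the microtubule-associated MAP7 family. A locus of 106 bases on chromosome 2, 164316839 to 164316944, assigned jointly to Dbndd2, Gm20458 and Sys1, had 58.1, 58.9 and 98.8 FPKM with ketamine and was listed at 0 with vehicle (limma, Benjamini-Hochberg adjusted p = 8.58e-05). In the series' siGSK3b table, which holds the same vehicle libraries, a neighbouring locus of the same joint name had 49.9, 108 and 148 FPKM with vehicle, and a longer Mtap7d1 locus had 9.01, 15.001 and 18.9 FPKM with vehicle. Loci of both names were thus above 0 in vehicle libraries at other limits. The Mtap7d1 call was lost when any library other than ketamine 1 was left out, and its adjusted p ranged between 0.000943 and 0.136 over 21 alternatives. For the joint locus it ranged between 1.95e-05 and 0.0347.

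Next in order stood the locus named Cnn1, for the smooth muscle protein calponin. It had 98.3, 109 and 114 FPKM with ketamine, against 62.0, 63.9 and 63.5 FPKM with vehicle. The groups were far apart relative to their spread, with a log2 difference of 0.75 ± 0.08 (SE) and an adjusted p of 0.0884 by limma. It passed the threshold in 2 of 21 alternatives, upper quartile scaling and quantile normalization, and its adjusted p ranged between 0.0266 and 0.881. The locus spans 172393 bases of chromosome 9, 21819172 to 21991564, and may hold other genes. Sumo2, a small protein that is attached to other proteins to alter their function, had 27.3, 32.3 and 25.9 FPKM with ketamine and 14.5, 14.0 and 10.3 FPKM with vehicle. Its groups did not overlap, and the log2 difference was 1.09 ± 0.15 with an adjusted p of 0.356 by limma.

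No gene of the receptor that ketamine blocks differed beyond the spread between libraries. The list of 7 measured genes holds the receptor-associated Grina beside the subunits. All 7 overlapped between groups, 6 of 7 had lower means with ketamine, and the median log2 difference was -0.15, beside -0.016 for all loci. Grin1, the obligatory subunit, had 48.7, 41.0 and 47.8 FPKM with ketamine and 41.0, 52.6 and 61.3 FPKM with vehicle. Grin2b, a subunit that prolongs channel opening, had 135, 136 and 143 FPKM with ketamine and 137, 153 and 179 FPKM with vehicle. Their log2 differences were -0.15 ± 0.15 and -0.18 ± 0.10 (SE). The vehicle libraries spread more widely than the ketamine libraries for both genes, with vehicle 3 the highest. Grin2a, Grin2d, Grin3a and the NMDA receptor-associated Grina also had lower means, between -0.26 and -0.12 on the log2 scale, and Grin2c a higher mean at 0.17. Another Grin2a locus with the same limits, left out of the list, had higher levels, at 209, 317 and 215 FPKM with ketamine. It had 306, 256 and 325 FPKM with vehicle, so the groups overlapped there too. The count of members lower at an unadjusted p under 0.05 was 0, and 2 without vehicle library 1.

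Few other glutamate and GABA receptor genes stood apart. Of 18 AMPA and kainate receptor genes and partners, 0 passed an unadjusted p under 0.05 in either direction. Their median log2 difference was -0.04. Of all loci, 2.74% were higher and 3.33% lower at that level. Of 7 metabotropic receptors, Grm2, a presynaptic brake on glutamate release, was lower at that level. Grm2 had 1.95, 1.28 and 1.88 FPKM with ketamine and 2.66, 2.73 and 2.40 FPKM with vehicle, a log2 difference of -0.42 ± 0.17. Of 12 GABA-A receptor subunits, Gabrb2 was lower, with 64.8, 61.7 and 67.0 FPKM with ketamine and 73.2, 73.9 and 70.2 FPKM with vehicle. Both genes had groups apart, and adjusted p-values by limma of 0.813 and 0.819. Leaving out most single libraries took either above an unadjusted p of 0.05.

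No neurotrophin gene was called, and Bdnf and Penk had lower values in every ketamine library. Of 19 measured neurotrophins, receptors and peptides, 0 were higher and 2 lower at an unadjusted p under 0.05, beside 2.74% and 3.33% of all loci, with a median log2 difference of -0.07. Bdnf, the ligand of TrkB, had 12.1, 13.1 and 13.1 FPKM with ketamine and 13.8, 17.2 and 15.03 FPKM with vehicle. Penk, the enkephalin precursor, had 9.27, 9.54 and 11.1 FPKM with ketamine and 15.2, 11.3 and 13.1 FPKM with vehicle. For both genes every ketamine library was below every vehicle library, by narrow margins. Their log2 differences were -0.24 ± 0.11 for Bdnf and -0.37 ± 0.14 for Penk, and the adjusted p-values by limma were 0.819 and 0.804. Ntrk3, which encodes TrkC, was also apart at -0.22 ± 0.10. Ntrk2, which encodes TrkB, overlapped at -0.15 ± 0.10. The count of lower members was 1 when any of ketamine 1, 2 and 3 or vehicle 3 was left out, and 3 without vehicle 2.

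In the translation control pathway 1 of 24 genes, Eef2, was lower at an unadjusted p under 0.05, beside 3.33% of all loci. A count of 1 of 24 is near that share. Eef2, the elongation factor whose kinase is inhibited when NMDA receptors are blocked at rest, had 137, 122 and 125 FPKM with ketamine and 141, 154 and 181 FPKM with vehicle. The groups just missed overlap, and the log2 difference was -0.30 ± 0.11 with an adjusted p of 0.791 by limma. That kinase, Eef2k, overlapped between groups at -0.05 ± 0.16, as did Mtor at -0.08 ± 0.10.

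The GSK3 and WNT list gave 1 higher and 2 lower members of 24 at that level, beside 2.74% and 3.33% of all loci. Gsk3b had 16.5, 18.4 and 18.005 FPKM with ketamine and 18.6, 17.5 and 18.2 FPKM with vehicle, and Gsk3a overlapped likewise, with log2 differences of -0.04 ± 0.09 and -0.06 ± 0.11. Ctnnb1, the β-catenin that GSK3 marks for degradation, had 76.8, 69.3 and 73.5 FPKM with ketamine and 94.5, 80.2 and 88.8 FPKM with vehicle. It was apart, at -0.26 ± 0.09 and an adjusted p of 0.771 by limma. Dvl2, which passes the WNT signal on from the receptor, was lower at -0.75 ± 0.19 over a locus of 481 bases. That locus, 69822175 to 69822655 of chromosome 11, lies outside the Dvl2 locus of the siGSK3b table, 69814343 to 69820979. Fzd2, a WNT receptor, was higher at 0.67 ± 0.22 over 690 bases and at levels of 1.48 to 2.46 FPKM with ketamine and 0.608 to 1.38 FPKM with vehicle. With a vehicle mean of 0.872 FPKM, Fzd2 met the 1 FPKM rule only through the ketamine libraries, so its count depends on the filter.

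Several activity-induced genes had lower values in every ketamine library, without a call. Of 25 measured immediate early genes, 6 were lower and 1 higher at an unadjusted p under 0.05, beside 3.33% and 2.74% of all loci. Lower means were found for 20 of 25, and the median log2 difference was -0.10. None passed the adjusted threshold, and the smallest adjusted p was 0.534. The 5 with groups apart and lower were the transcription factor genes Fos, Junb and Npas4, the antiproliferative gene Btg2 and the MAP kinase phosphatase gene Dusp1. Npas4, with a ketamine mean of 0.650 FPKM, met the 1 FPKM rule only through the vehicle libraries, so its place in these counts depends on the filter. The 250 bases before the start of Btg2, Dusp1 and Fos are shown because all 3 were lower and these stretches held a searched motif. They are from RefSeq, build GRCm38.p6, at chr1:134079156-134079405 on the minus strand for Btg2, chr17:26508473-26508722 on the minus strand for Dusp1 and chr12:85473640-85473889 on the plus strand for Fos. Capitals mark matches, on either strand, to the cAMP response element TGACGTCA, the E-box CACGTG or the TATA motif TATAAA. The AP-1 motif TGACTCA and GAANNTTC, part of the heat shock element, were also searched.
Btg2: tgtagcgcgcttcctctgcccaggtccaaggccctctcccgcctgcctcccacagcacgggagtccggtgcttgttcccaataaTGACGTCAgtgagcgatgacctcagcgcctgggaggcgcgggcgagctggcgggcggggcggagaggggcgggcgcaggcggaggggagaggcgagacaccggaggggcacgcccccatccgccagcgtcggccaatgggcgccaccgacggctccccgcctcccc
Dusp1: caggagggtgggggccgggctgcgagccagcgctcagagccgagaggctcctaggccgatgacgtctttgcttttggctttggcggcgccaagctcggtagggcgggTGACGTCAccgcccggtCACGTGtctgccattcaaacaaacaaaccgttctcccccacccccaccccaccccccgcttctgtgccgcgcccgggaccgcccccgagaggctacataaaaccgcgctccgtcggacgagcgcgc
Fos: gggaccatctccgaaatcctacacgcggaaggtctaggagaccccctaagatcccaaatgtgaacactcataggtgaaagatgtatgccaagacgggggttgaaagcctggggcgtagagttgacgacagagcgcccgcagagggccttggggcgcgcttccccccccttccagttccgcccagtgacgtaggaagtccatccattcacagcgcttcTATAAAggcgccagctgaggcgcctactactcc

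TGACGTCA occurred in 2 of these 5 promoters, 166 bases before the start of Btg2 and 143 before that of Dusp1. It occurred in 2 of the 20 matched immediate early gene promoters, which include these 5, and in 1.55% of 32851 promoters of this length. CACGTG occurred in Dusp1 at 126 bases, in 4 of the 20 and in 6.02% of all. TATAAA occurred in Fos at 33 bases, in 2 of the 20 and in 12.4% of all. TGACTCA and GAANNTTC occurred in 0 of the 5, in 0 and 2 of the 20, and in 4.46% and 6.69% of all. Junb and Npas4 held none of the 5 motifs in this stretch. No motif is contained in another of those searched.

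Fos, over a locus of 873 bases, had 7.58, 5.19 and 3.76 FPKM with ketamine and 11.9, 10.0 and 8.65 FPKM with vehicle. At a Fos locus of 3309 bases in the siGSK3b table the same vehicle libraries had 15.8, 13.6 and 13.2 FPKM. At 1 of 3265 bases in the series' L803mts table they had 6.37, 5.88 and 5.81 FPKM. Btg2 had 6.54, 4.90 and 5.19 FPKM with ketamine and 10.2, 8.19 and 9.67 FPKM with vehicle. Dusp1 had 1.06, 2.21 and 1.05 FPKM with ketamine and 3.29, 3.61 and 3.04 FPKM with vehicle. In all 3 the highest ketamine library was below the lowest vehicle library. The log2 differences were -0.81 ± 0.23, -0.67 ± 0.15 and -0.85 ± 0.21 (SE), and the adjusted p-values by limma were 0.686, 0.534 and 0.610. Junb, Npas4, Nr4a1 and Klf4 are named because of their values. Junb, over 599 bases, had 3.95, 2.85 and 2.31 FPKM with ketamine and 4.46, 6.52 and 5.69 FPKM with vehicle. Npas4, a neuron-specific activity gene, had 0.815, 0.654 and 0.480 FPKM with ketamine and 1.66, 0.948 and 2.56 FPKM with vehicle. Nr4a1, an orphan nuclear receptor, was the sixth lower member, at -0.63 ± 0.26, but ketamine library 1 with 8.44 FPKM lay above vehicle library 1 with 6.97 FPKM.

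Not every activity-induced gene followed. Arc, whose protein regulates AMPA receptors at synapses, had 14.1, 7.74 and 7.38 FPKM with ketamine and 11.8, 12.3 and 18.3 FPKM with vehicle, and overlapped at -0.53 ± 0.26. Egr1, an activity-induced transcription factor gene, and Homer1, a postsynaptic scaffold gene, overlapped at -0.10 ± 0.20 and 0.03 ± 0.10. Klf4, a transcription factor gene, was the higher member, with 3.19, 2.93 and 3.12 FPKM with ketamine and 2.34, 2.09 and 1.82 FPKM with vehicle. Klf4 was above an unadjusted p of 0.05 when any of ketamine 1, 2 and 3 or vehicle 3 was left out. Lower members numbered between 4 and 7 when 1 library was left out. The list averaged 2.76, 2.62 and 2.37 on the log2 scale with ketamine, against 2.74, 2.76 and 2.88 with vehicle, so ketamine library 1 was not below the vehicle range. In the series' other comparisons with the same vehicle libraries, 7 of 26 immediate early genes were higher and 0 lower with L803mts, beside 3.58% and 2.54% of all loci there, and 0 of 25 in either direction with siGSK3b, beside 2.7% and 2.8%. The differences between treatments were not tested, and the limits of some loci, Fos among them, differ between the comparisons.

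**Figure D2:**
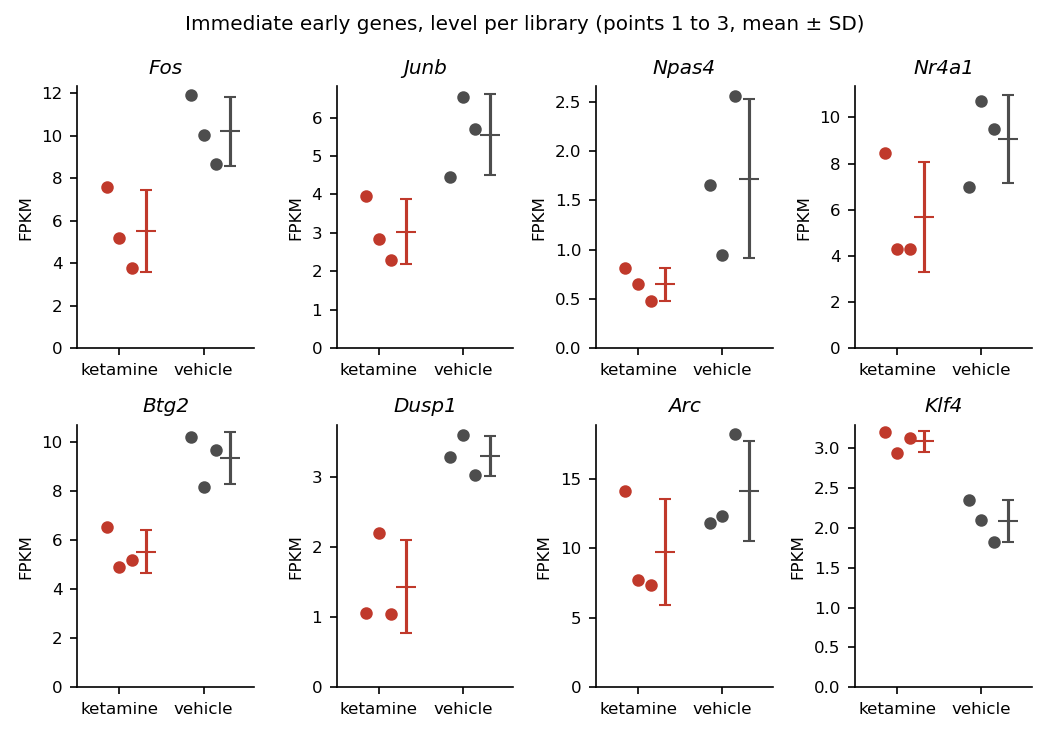
FPKM (vertical axis, linear and starting at 0) of 8 immediate early genes in 3 ketamine (red, left) and 3 vehicle (grey, right) libraries, with the mean and SD beside the points. Fos, Junb, Npas4, Btg2 and Dusp1 do not overlap and are lower with ketamine, Nr4a1 and Arc overlap, and Klf4 is higher. The Fos locus has 873 bases and the Junb locus 599.

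Of 22 oligodendrocyte and myelin genes, 6 were lower and 1 higher at an unadjusted p under 0.05, beside 3.33% and 2.74% of all loci. Groups were apart in all 7, none was called, and the median log2 difference was -0.11. Against the same vehicle libraries, 4 of 21 were lower with siGSK3b, with a median of -0.19, and 2 of 22 with L803mts, with a median of -0.10. In bulk tissue, fewer oligodendrocytes and less RNA per cell cannot be told apart. Mbp, a main protein of compact myelin, had 379, 313 and 341 FPKM with ketamine and 452, 460 and 461 FPKM with vehicle. Cnp, an enzyme of uncompacted myelin, had 41.3, 37.5 and 40.2 FPKM with ketamine and 57.8, 50.01 and 50.2 FPKM with vehicle. The vehicle libraries were close together for Mbp and all ketamine libraries lay below them. The log2 differences were -0.41 ± 0.09 and -0.40 ± 0.09, and both adjusted p-values by limma were 0.534.

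The other 4 lower members, named because of their values, were Sox10, Mag, Opalin and Bcas1. Sox10, the transcription factor of the oligodendrocyte lineage, had 10.1, 5.21 and 5.00 FPKM with ketamine and 11.5, 10.4 and 10.6 FPKM with vehicle, with ketamine library 1 near the vehicle range. Mag, an adhesion protein of the myelin sheath, had 20.0, 14.0 and 15.2 FPKM with ketamine and 20.0, 23.2 and 22.0 FPKM with vehicle, with its highest ketamine and lowest vehicle values almost equal. Gjc3, a connexin gene, was the higher member at 0.88 ± 0.20, over a locus of only 149 bases. Mal, among the most abundant of the list, overlapped at -0.04 ± 0.11, and Mog and the precursor marker Pdgfra overlapped too. Without ketamine library 2 the count of lower members was 3, and without any other library it was 4 or 5. The list averaged 4.36, 4.27 and 4.29 on the log2 scale with ketamine and 4.48, 4.42 and 4.33 with vehicle, so ketamine 1 lay within the vehicle range.

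Nuclear genes of the mitochondrial respiratory chain had mostly lower means with ketamine, and none was called. Of 68 measured, 55 had lower means with ketamine, 13 were apart and lower and 3 apart and higher, beside 6.43% and 4.99% of all loci. At an unadjusted p under 0.05, 6 were lower and 2 higher, beside 3.33% and 2.74% of all loci, and the median log2 difference was -0.13. Against the same vehicle libraries, 0 of 65 were lower with L803mts, with a median of -0.11, and 4 of 67 with siGSK3b, with a median of -0.02. Cox6a1, a subunit of cytochrome c oxidase, had 57.6, 45.9 and 52.5 FPKM with ketamine and 73.2, 70.9 and 82.3 FPKM with vehicle. Cox8a of the same complex had 143, 117 and 135 FPKM with ketamine and 163, 161 and 176 FPKM with vehicle. The groups were clearly apart for both, at -0.53 ± 0.10 and -0.34 ± 0.09, with adjusted p-values by limma of 0.534 and 0.685. In complex I, Ndufs6 had 13.1, 14.2 and 13.2 FPKM with ketamine and 19.4, 17.1 and 16.4 FPKM with vehicle, and Ndufa8, named like Cox5b because of its values, was lower at -0.45 ± 0.13. On the other side Cox5b, also of cytochrome c oxidase, had 154, 168 and 172 FPKM with ketamine and 136, 137 and 144 FPKM with vehicle, so subunits of 1 complex lay in both directions. The count of lower members was 13 without vehicle library 1 and between 4 and 9 without each other library.

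**Figure D3:**
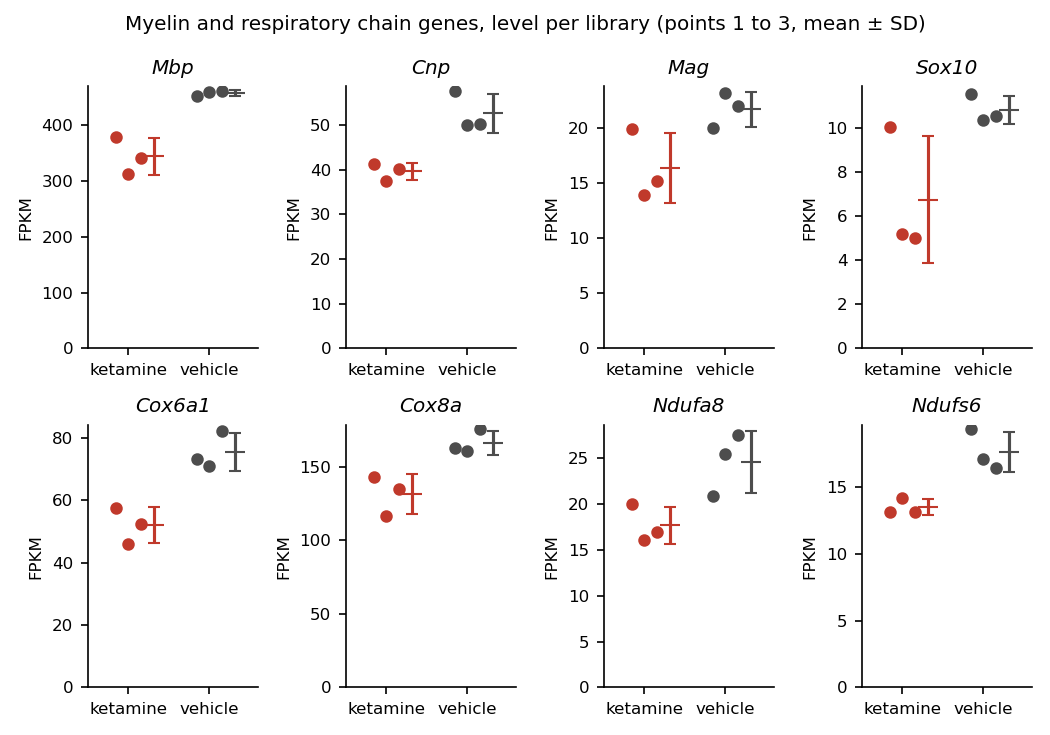
FPKM (vertical axis, linear and starting at 0) of 4 myelin and oligodendrocyte genes (Mbp, Cnp, Mag, Sox10) and 4 respiratory chain genes (Cox6a1, Cox8a, Ndufa8, Ndufs6) in 3 ketamine (red, left) and 3 vehicle (grey, right) libraries, with the mean and SD beside the points. The ketamine values lie below the vehicle values in each panel, and only just so for Mag.

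Cytosolic ribosomal protein genes did not share that lean. Of 66, 3 were higher and 2 lower at an unadjusted p under 0.05, beside 2.74% and 3.33% of all loci. Groups were apart and higher at 8 and apart and lower at 4, beside 4.99% and 6.43% of all loci. The median log2 difference was -0.03. Rpl39 had 84.5, 79.4 and 77.5 FPKM with ketamine and 55.1, 63.5 and 53.2 FPKM with vehicle. It was apart at 0.49 ± 0.09 with an adjusted p of 0.534 by limma. The Rpl39 locus spans 73877 bases and may hold other genes. Rps19 had 12.3, 10.0 and 13.7 FPKM with ketamine and 16.9, 15.9 and 21.4 FPKM with vehicle, apart at -0.55 ± 0.16 and an adjusted p of 0.696. Both encode proteins with processed pseudogenes, so reads may have been divided between copies. Lower members numbered 11 without vehicle library 1.

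Microglial genes were apart and lower at 3 of 18 and astrocyte genes at 2 of 20, beside 6.43% of all loci. Of 18 microglial genes, 3 were lower and 0 higher at an unadjusted p under 0.05, beside 3.33% and 2.74% of all loci, all 3 with groups apart, and the median log2 difference was -0.12. Ly86 had 3.56, 5.23 and 4.15 FPKM with ketamine and 6.26, 6.17 and 6.16 FPKM with vehicle, a log2 difference of -0.45 ± 0.15. Cx3cr1, the fractalkine receptor, had 7.41, 6.58 and 7.83 FPKM with ketamine and 9.47, 9.63 and 8.65 FPKM with vehicle, a log2 difference of -0.31 ± 0.12. Csf1r, the receptor microglia need to survive, had 9.81, 9.58 and 9.10 FPKM with ketamine and 11.9, 10.4 and 12.97 FPKM with vehicle, at -0.28 ± 0.12. The adjusted p-values by limma were 0.773 for Ly86, 0.807 for Cx3cr1 and 0.819 for Csf1r. The count at an unadjusted p under 0.05 was between 0 and 2 when 1 library was left out, and 0 without ketamine 1. Of 20 astrocyte genes, 2 were lower and 0 higher. Ntsr2, a neurotensin receptor of astrocytes, had 59.6, 45.7 and 47.5 FPKM with ketamine and 62.8, 62.8 and 71.5 FPKM with vehicle, apart at -0.37 ± 0.12. The count was 0 without ketamine library 2 or ketamine library 3. Slc1a2, the main glutamate transporter of astrocytes and the most abundant of the list, had 538, 614 and 638 FPKM with ketamine and 545, 580 and 590 FPKM with vehicle, and overlapped. Tyrobp, a microglial signalling adaptor, overlapped as well, with means of 28.9 FPKM with ketamine and 28.7 FPKM with vehicle.

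Of 22 endothelial and mural genes, 3 were higher and 0 lower at an unadjusted p under 0.05, beside 2.74% and 3.33% of all loci, 4 were apart and higher, and the median log2 difference was 0.13. Acta2, the actin of smooth muscle, had 12.4, 17.1 and 11.9 FPKM with ketamine and 7.67, 8.57 and 8.65 FPKM with vehicle. Slc2a1, the glucose transporter of the blood-brain barrier, had 25.0, 26.1 and 28.2 FPKM with ketamine and 19.5, 19.5 and 21.5 FPKM with vehicle. Vwf, the clotting factor of endothelial cells, had 10.1, 20.9 and 7.81 FPKM with ketamine and 6.84, 6.07 and 7.14 FPKM with vehicle, with ketamine library 2 far above the rest. The log2 differences were 0.66 ± 0.15, 0.37 ± 0.09 and 0.75 ± 0.31, and the adjusted p-values by limma were 0.572, 0.599 and 0.818. Most other members, Pecam1, Cdh5 and Rgs5 among them, overlapped. Fibroblast genes of the meninges, which adjoin these vessels, averaged 3.45, 3.65 and 2.49 on the log2 scale with ketamine and 3.03, 2.82 and 2.84 with vehicle. The part of such tissue in the vascular values was not tested. Against the same vehicle libraries, 3 of 19 vascular genes were higher with L803mts, with a median of 0.10, and 0 of 20 with siGSK3b.

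Few glucocorticoid, clock and chaperone genes passed the unadjusted level. Of 18 glucocorticoid response genes, 2 were higher and 0 lower, beside 2.74% and 3.33% of all loci. Tsc22d3, a glucocorticoid-induced repressor of inflammation, had 38.8, 39.8 and 49.5 FPKM with ketamine and 37.2, 35.8 and 28.4 FPKM with vehicle. Plin4, a lipid droplet protein, had 1.58, 1.89 and 5.13 FPKM with ketamine and 0.432, 1.22 and 0.901 FPKM with vehicle, its mean carried by ketamine library 3. With a vehicle mean of 0.852 FPKM, Plin4 met the 1 FPKM rule only through the ketamine libraries, so its count depends on the filter. Tsc22d3 and Plin4 were both apart, at 0.33 ± 0.14 and 0.97 ± 0.35, with adjusted p-values by limma of 0.818 and 0.791. The count was 6 without ketamine library 1 and 0 without vehicle library 3. Per3, a clock gene, was the only higher member of 19 clock genes, with 34.5, 48.4 and 45.7 FPKM with ketamine and 36.0, 28.7 and 29.1 FPKM with vehicle, overlapping in ketamine 1 and vehicle 1. Dnajb4, an HSP40 co-chaperone, was the only higher member of 30 chaperones, at 0.28 ± 0.09, and the clock and chaperone lists had 0 lower members. A count of 1 of 19 or of 1 of 30 is near the share of all loci.

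Among genes outside the lists, those of smallest p on the lower side included a channel, a splicing factor and a kinesin. Kcnk2, which encodes the background potassium channel TREK-1, had 26.0, 34.8 and 31.0 FPKM with ketamine and 45.0, 45.8 and 50.7 FPKM with vehicle. The groups were well apart at -0.62 ± 0.12, with an adjusted p of 0.534 by limma. Prpf19, a spliceosome-associated ubiquitin ligase, had 49.8, 38.3 and 43.5 FPKM with ketamine and 64.1, 61.1 and 68.2 FPKM with vehicle. It was apart at -0.55 ± 0.11, but its locus spans 198276 bases and may hold other genes. Kif22, a mitotic kinesin, had 1.53, 1.96 and 1.602 FPKM with ketamine and 5.88, 3.78 and 3.95 FPKM with vehicle, apart at -1.02 ± 0.19 over 975 bases.

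Other genes of this kind were measured over short stretches. Id4, an inhibitor of helix-loop-helix factors, was at -0.80 ± 0.17 over 326 bases, and Slc1a4, a neutral amino acid transporter, at -1.06 ± 0.20 over 327 bases. Alg6, an enzyme of protein glycosylation, had 185, 312 and 213 FPKM with ketamine and 429, 508 and 455 FPKM with vehicle over 126 bases. Against the same vehicle libraries this locus had 216, 276 and 269.5 FPKM with L803mts and 311, 179 and 335 FPKM with siGSK3b, also below every vehicle value. Tcf25, a transcription factor gene, had 225, 221 and 246 FPKM with ketamine and 329, 310 and 341 FPKM with vehicle over 203 bases. The same vehicle libraries had 81.2, 60.8 and 45.3 FPKM at the Tcf25 locus with nearly the same limits in the siGSK3b table. The Tcf25 values of the vehicle libraries thus differed between tables, while those of Alg6 and Gjc3 were nearly equal in all 3. Of 2959 loci with identical limits in the ketamine and siGSK3b tables, 77.1% had vehicle means within 0.1 on the log2 scale, and 44 differed by more than 1 unit.

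A larger share of pseudogene loci than of all loci was higher with ketamine. Of 473 pseudogene loci tested, 67 were higher (14.2%) and 12 lower at an unadjusted p under 0.05, beside 2.74% and 3.33% of all loci, and 0 were called. Groups were apart and higher at 78 of them (16.5%), beside 4.99% of all loci. The share depended on locus length. Under 500 bases, 32 of 104 pseudogene loci (30.8%) were higher, and at 500 bases or more 35 of 369 (9.49%). Protein-coding loci under 500 bases were higher at 29 of 383 (7.57%) and longer ones at 211 of 11378 (1.85%). Pseudogenes share sequence with their parent genes, so these values are uncertain.

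Gm6368, a pseudogene locus of 295 bases, had 257, 261 and 238 FPKM with ketamine and 179, 174 and 188 FPKM with vehicle. Gm12529, a pseudogene locus that spans 74558 bases, had 13.1, 12.99 and 13.3 FPKM with ketamine and 7.48, 7.21 and 5.58 FPKM with vehicle. Both were tight within groups and apart, at 0.48 ± 0.07 and 0.87 ± 0.13, with adjusted p-values of 0.423 by limma. Mean log2 levels of all pseudogene loci were 4.13, 4.10 and 4.09 with ketamine and 3.95, 3.9996 and 3.93 with vehicle, so the groups were apart, while those of protein-coding loci overlapped at 3.80, 3.77 and 3.77 with ketamine and 3.80, 3.78 and 3.82 with vehicle. A single unnamed locus, not a member, held 82.2% to 86.6% of the FPKM sum in ketamine libraries and 71.4% to 72.9% in vehicle libraries. Its part in the pseudogene values was not tested. The count of higher pseudogene loci was between 56 and 75 when 1 library was left out.

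**Figure D4:**
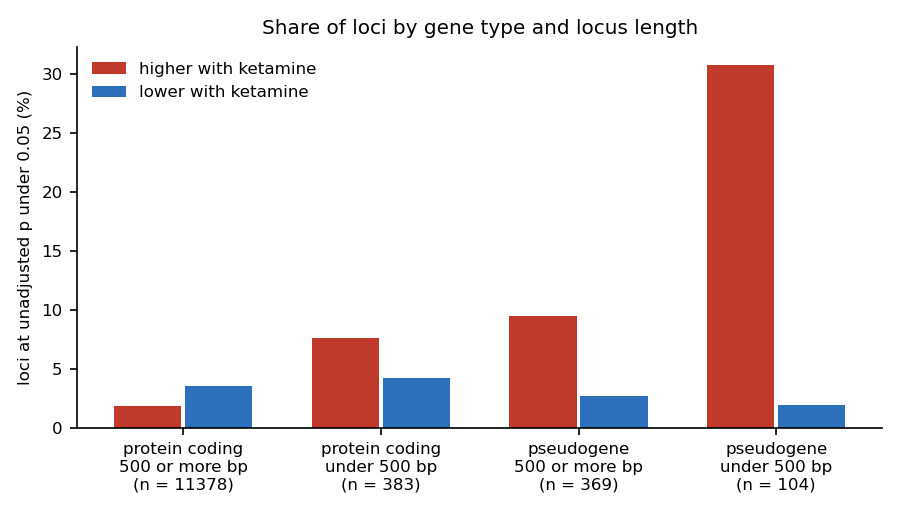
Percentage of loci (vertical axis) at an unadjusted limma p under 0.05, higher (red) or lower (blue) with ketamine than with vehicle, for protein-coding and pseudogene loci of at least 500 or under 500 bases. The share of higher loci is 30.8% for short pseudogene loci and 1.85% for long protein-coding loci.

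Across all 33 gene lists, 0 of 697 distinct loci were called. At an unadjusted p under 0.05, 19 were higher and 36 lower, beside 2.74% and 3.33% of all loci. Lists of choroid plexus, meninges, ependyma and vessels had the highest medians. The NMDA receptor list with Grina, the respiratory chain, microglia and myelin had the lowest, and 21 of 33 medians lay below that of all loci.

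**Figure D5:**
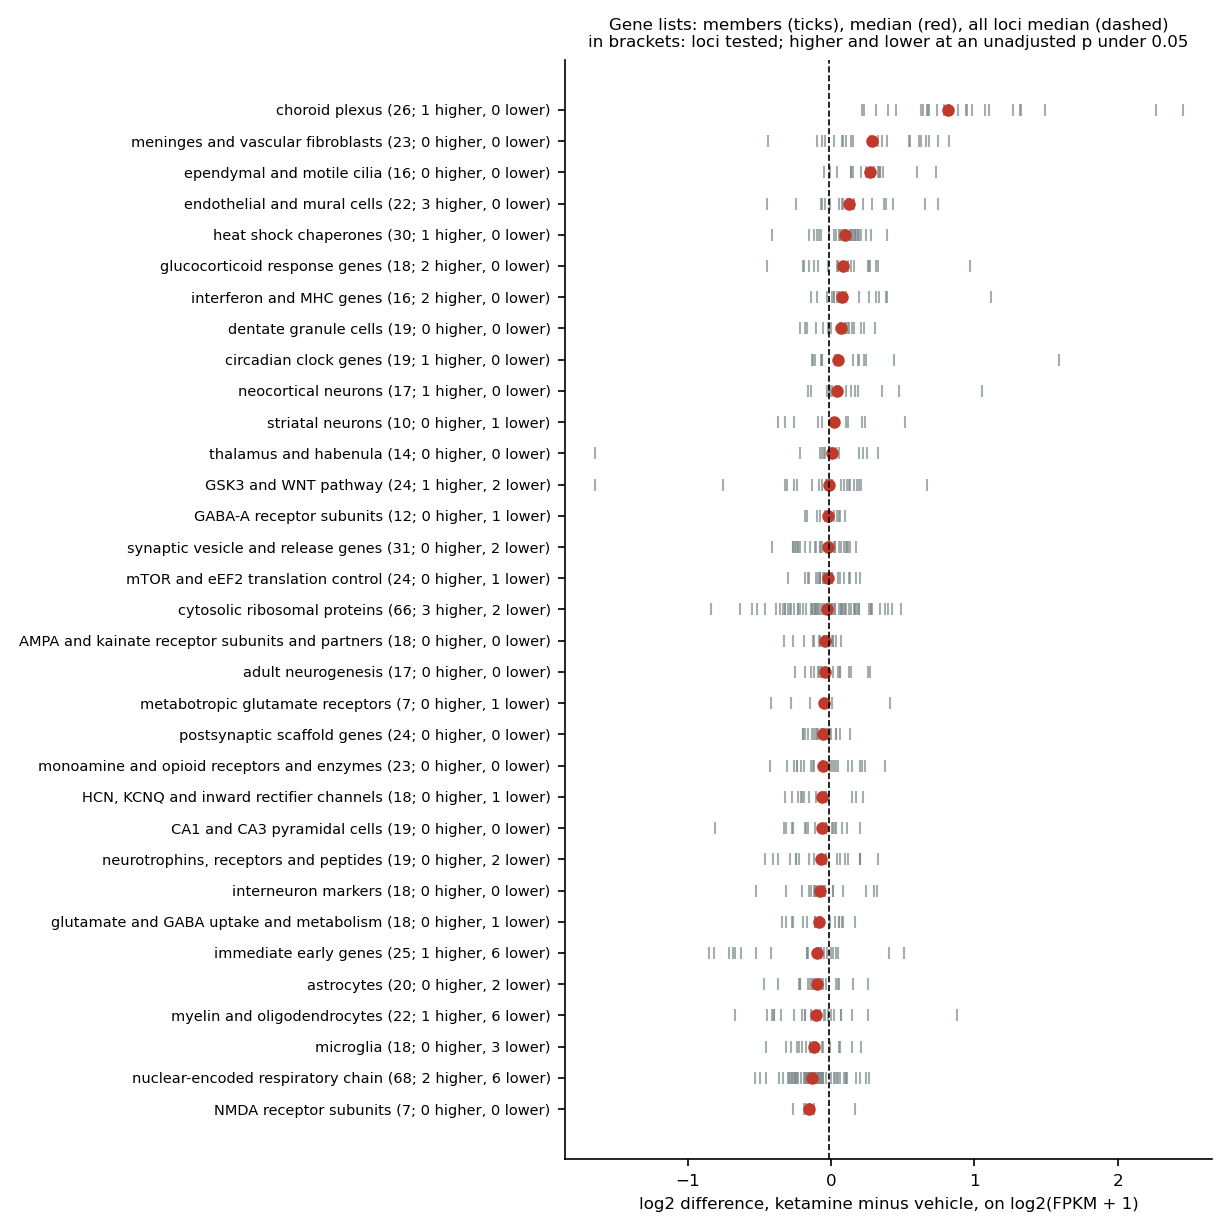
Log2 difference of ketamine minus vehicle on log2(FPKM + 1) (horizontal axis) for every measured member (grey ticks) of 33 gene lists, ordered by list median (red point), with the median of all 15744 loci as a dashed line. Medians lie between -0.15 for the list labelled NMDA receptor subunits, which includes Grina, and 0.82 for choroid plexus genes.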

How the data were processed

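RNA was extracted with TRIzol from mouse hippocampus and sequenced after poly(A) selection, per the labels. The submitters' processing notes name TopHat2 2.0.9, Cufflinks and Cuffdiff and the builds GRCh37 and NCBIM37, without a role. The authors deposited FPKM values per locus for each library, and locus coordinates are those of NCBIM37. Their deposited fold change, p and FDR columns were not used. Whether counting used strand is not given in the sources used here.

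From these values, log2(FPKM + 1) was compared with limma 3.58.1 in R 4.3.3 (empirical Bayes with a mean trend, 3 libraries against 3, no covariate), over named loci that averaged 1 FPKM or more. P-values were adjusted by Benjamini-Hochberg over all of them. The fold scale understates changes of low genes. The procedure was tested on simulated data. Many loci are fragments of genes. Gene lists took 1 locus per gene, protein-coding first and then the longest. A group is called apart where all its values lie on 1 side of the other group's. Members and lists were chosen with earlier results of these data known. Named genes were up to 12 per direction by smallest p with groups apart, a fixed set of receptor, kinase and activity genes, the 3 members of smallest p in each list and, in lists of other cell types, the 2 most abundant. Others are marked as named because of their values. Promoters were matched by symbol for 20 of the 25 immediate early genes. Alternatives varied the pseudocount, filter, scaling, limma options, replicate block and libraries. Some list members counted here are not reported by name.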

Additional observations from a re-analysis of the deposited data

How the results depend on the processing

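The count of loci called higher was 2, and 1 without the mean trend, 1 with the replicate block and 1 with the choroid plexus level as a covariate. It was 5 for ketamine 3 against vehicle 2 and 3, and 5 for ketamine 1 and 2 against vehicle 1. These last 3 settings were chosen after seeing the data, and both restricted comparisons have 1 library in an arm, whose spread is assumed to be that of the other arm. When 1 library was left out, between 1 and 4 loci were called higher and between 0 and 1 lower, the 1 being Rpsa-ps10 without vehicle 1. For ketamine 1 and 2 against vehicle 1, 5 were called lower. At an unadjusted p under 0.05, 431 loci were higher, and 276 with a mean of at least 5 FPKM or 238 for ketamine 3 against vehicle 2 and 3. Lower loci numbered 525, and 310 in each of the comparisons restricted to high or low choroid plexus libraries. Leaving out 1 library gave between 273 and 577 higher loci and between 272 and 753 lower, the lowest without ketamine 2 and the highest without vehicle 1. With the choroid plexus covariate, over all 6 libraries, 5 immediate early, 5 myelin and 4 respiratory chain genes were lower and 2 vascular genes higher at that level. The cause was not tested. Scaling turned the small lean of all loci: the median log2 difference was -0.016 in the main test and 0.0052 after median centring. The share of lower loci among those at an unadjusted p under 0.05 was 54.9% in the main test, against 42.5% after median centring, 47.6% with upper quartile scaling, 48.3% with quantile normalization, 46.4% with the choroid plexus covariate and 37.8% for ketamine 1 and 2 against vehicle 1.

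Libraries of the same replicate number deviated from their group means with correlations of 0.108, 0.042 and 0.126. Those of other numbers lay between -0.192 and 0.089. These small values do not decide whether the numbers pair the libraries, and the labels do not say so. With the number as a block, 1 locus was called higher and 0 lower, counts of loci at an unadjusted p under 0.05 stayed within 1.5 times the main counts, and Mtap7d1 had an adjusted p of 0.107 by limma. The block changed no other adjusted call, while unadjusted counts in some lists moved, such as 1 lower microglial gene in place of 3. Ketamine 1 and ketamine 3 correlated best with the vehicle library of their own number, and ketamine 2 with vehicle 1, at 0.089.

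Depth is not known, so the precision of low FPKM values cannot be given. With 3 libraries a group, a median standard error of 0.15 on the log2 scale limits which small changes can pass.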

Other observations

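Synaptic vesicle genes lay close to the median of all loci, with a median log2 difference of -0.02. At an unadjusted p under 0.05, 2 of 31 were lower and 0 higher, beside 3.33% and 2.74% of all loci. Cplx2, a complexin that regulates vesicle fusion, had 64.9, 71.5 and 90.9 FPKM with ketamine and 81.8, 104 and 117 FPKM with vehicle, and overlapped. Vamp1, a vesicle SNARE, had 13.9, 13.5 and 13.5 FPKM with ketamine and 18.1, 14.6 and 17.4 FPKM with vehicle, and was apart at -0.27. Of 24 postsynaptic scaffold genes, 18 interneuron markers and 17 adult neurogenesis genes, 0 passed that level in either direction, with medians of -0.05, -0.08 and -0.04. Dentate granule and pyramidal cell markers had medians of 0.07 and -0.06, each with 0 of 19 at that level.

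Got2, a mitochondrial enzyme of glutamate metabolism, had 39.5, 34.9 and 37.4 FPKM with ketamine and 46.5, 43.6 and 52.8 FPKM with vehicle. It was the only 1 of 18 genes of glutamate and GABA metabolism lower at that level, at -0.34, beside 3.33% of all loci. A locus of 565 bases named Fezf2, a marker of deep-layer neocortical neurons, had 9.90, 16.8 and 13.7 FPKM with ketamine. It had 9.38, 3.50 and 5.83 FPKM with vehicle and was apart at 1.05. This locus, 13177723 to 13178287 of chromosome 14, lies outside the Fezf2 locus of the siGSK3b table, 13174705 to 13177297. There the same vehicle libraries had 13.9, 19.2 and 19.8 FPKM.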
